A study of Mus musculus with 9 samples.

Results

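Expression of 9 arterial and elastic fibre genes, Bmx, Gkn3, Mgp, Eln, Fbln2, Fbln5, Ltbp4, Stmn2 and Cytl1, was followed in RNA-seq libraries of mouse bone marrow (BM) endothelial cells (ECs). The genes were taken by name from a table of 46078 genes, with earlier results of these data known. ECs were sorted as CD45-Ter119-CD31+ cells from wild type mice of the B6 strain, with no treatment named, and divided by Sca-1, a surface protein of arterial and arteriolar ECs in the BM, into 4 Sca-1+ libraries and 5 Sca-1- libraries. The study assigns Sca-1 high ECs to arteries and arterioles and Sca-1 low ECs to sinusoids, and the comparison of the fractions asks how the transcriptomes of these ECs differ. Per the labels every library is wild type and B6, but the titles also differ in wording, with wt in Sca-1+ libraries 15 and 19 and Sca-1- libraries 8 and 16, CD452 in Sca-1+ library 13 and Sca-1- libraries 14 and 22, the same digits without CD in Sca-1- library 10 and neither in Sca-1+ library 7. What these words mark is not given in the sources used here. Libraries are named here by the number that ends their title, which is 7, 13, 15 or 19 in the Sca-1+ and 8, 10, 14, 16 or 22 in the Sca-1- fraction. The ages of the mice, and whether every library came from a separate mouse, are not given in the sources used here. The titles of Sca-1+ library 15 and Sca-1- library 16 carry the same number before wt, so these libraries may share a source, and p-values measure the spread between these libraries, which may in part be technical.

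Arteries resist pulsatile pressure through elastic fibres, which have a core of crosslinked elastin laid on a scaffold of fibrillin microfibrils. Fibulins and latent TGF-beta binding proteins bring the elastin precursor to that scaffold, and lysyl oxidases crosslink it. Sinusoids of the BM are thin-walled, permeable vessels without an elastic layer. ECs of arteries and arterioles also carry their own programme, driven by Notch signalling and SOX factors. Elastic fibre genes are expressed by smooth muscle cells and fibroblasts as well as by ECs.

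Each library held between 21581653 and 25959818 counts, and 3 counts, taken as the floor of detection, equalled 0.0996 to 0.209 CPM (counts relative to the TMM-scaled library size). Ly6a, which encodes Sca-1, was at 874 to 1306 CPM in the Sca-1+ libraries and at 0.240 to 1.49 CPM in the Sca-1- libraries, so the labels of the sort held in all 9 libraries. Pecam1, which encodes CD31, did not pass the test between fractions (log2 fold change 0.74 ± 0.49 (SE), adjusted p = 0.247). Most markers of ECs did not follow Pecam1, since 21 of 25 general endothelial genes were higher in Sca-1+ libraries and none was lower. Among all genes tested, 23.3% were higher and 21.4% lower. Flt1, a VEGF receptor, was at 427 to 687 CPM in Sca-1+ libraries and at 7.04 to 9.91 CPM in Sca-1- libraries. Of 16 sinusoidal endothelial genes tested, 14 were higher in Sca-1+ libraries, Plvap and Emcn among them, while Clec4g and Lyve1 were lower. All 16 megakaryocyte genes were lower in Sca-1+ libraries, and their summed level was 41.9 to 97.4 CPM there against 27132 to 119446 CPM in Sca-1- libraries, or 3.15% to 6.93% of all counts. The Sca-1- libraries, labelled as ECs, therefore carried low levels of most endothelial genes and high levels of megakaryocyte genes. They are called libraries, not ECs, below, and each difference below was measured against that background. The Sca-1+ libraries held smooth muscle and pericyte genes too, with Rgs5 at 37.5 to 539 CPM against 0 to 18.5 CPM in Sca-1- libraries. The name Sca-1+ ECs follows the label and means the whole sorted fraction, not ECs alone. In bulk libraries, fewer cells of a type and less RNA per cell cannot be told apart. The running numbers that open the titles also form separate series in the fractions, so the order of handling that they may mark and the fraction cannot be told apart.

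Promoter sequences of RefSeq (build GRCm38.p6) were available for 6 of the 9 genes, namely Bmx, Gkn3, Fbln2, Fbln5, Ltbp4 and Cytl1. The 3 shown here are the 250 bases before the start of genes that represent a moderate, a large and an unstable difference between fractions, and contain no annotated exon. They are written 5′ to 3′ on the strand of the gene, and capitals mark GGAA or its reverse complement TTCC, the core letters bound by ETS factors, which are active in all ECs. Bmx lies at chrX:164258194-164258443 on the minus strand, Gkn3 at chr6:87388936-87389185 on the minus strand and Cytl1 at chr5:37735269-37735518 on the plus strand.
Bmx: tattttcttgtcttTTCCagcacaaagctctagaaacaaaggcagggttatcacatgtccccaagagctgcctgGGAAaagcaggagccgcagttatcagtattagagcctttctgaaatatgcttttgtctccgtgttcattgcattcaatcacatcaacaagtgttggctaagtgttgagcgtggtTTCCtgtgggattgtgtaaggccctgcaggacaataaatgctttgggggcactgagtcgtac
Gkn3: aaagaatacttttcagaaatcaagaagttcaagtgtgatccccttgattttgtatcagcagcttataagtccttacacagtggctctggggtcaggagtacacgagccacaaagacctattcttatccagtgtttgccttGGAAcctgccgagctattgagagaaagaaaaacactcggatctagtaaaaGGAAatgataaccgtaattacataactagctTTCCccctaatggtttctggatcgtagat
Cytl1: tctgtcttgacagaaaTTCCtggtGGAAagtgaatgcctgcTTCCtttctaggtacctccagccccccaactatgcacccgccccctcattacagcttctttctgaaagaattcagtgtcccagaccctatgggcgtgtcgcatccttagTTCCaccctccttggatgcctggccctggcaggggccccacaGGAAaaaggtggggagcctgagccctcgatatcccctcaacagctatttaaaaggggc
The ETS letters were found 3 times in the Bmx window, 3 times in the Gkn3 window and 5 times in the Cytl1 window. A match is common, since 93.4% of all 32851 RefSeq windows of this length held at least 1, with a median of 3. The SOX letters ACAAT, searched on both strands, occurred 2 times in the Bmx window and were not found in the other two, against 27.7% of all windows. The RBPJ letters TGGGAA, which contain the ETS letters, occurred 1 time in the Bmx window, against 21.59% of all windows. The KLF letters CACCC occurred 2 times in the Cytl1 window, against 52.01% of all windows. TATAAA was not found in any of the 3 windows, against 12.4% of all. These matches describe the letters only.

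Of the 9 genes 8 rose in Sca-1+ libraries compared with Sca-1- libraries, and for each of those 8 every Sca-1+ library lay above every Sca-1- library. Cytl1 was the exception, with an adjusted p of 0.462 and overlapping fractions. Among all 15937 genes tested, 23.3% were higher in Sca-1+ libraries, 21.4% were lower, and 24.8% had every Sca-1+ library above every Sca-1- library. All 9 genes passed the filter on low counts, and their median log2 fold change was 3.19 against 0.07 over all genes tested. A share of 10.7% of all genes was called higher with a change at least as large as that of Mgp, the smallest of the 8. When the 25 general endothelial genes, rather than all genes, set the scale of each library (the endothelial scaling), 3 of the 9 stayed higher in Sca-1+ libraries (Gkn3, Fbln2 and Fbln5) and the other 6 turned to values below 0 that did not pass the test. That scaling moved the median of all genes to -3.83. All 9 genes were above the median before and stayed above it by construction, since a change of scale shifts every gene by nearly the same amount. Under the endothelial scaling 299 of all 15937 genes were called higher and 13735 lower.

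**Figure D1:**
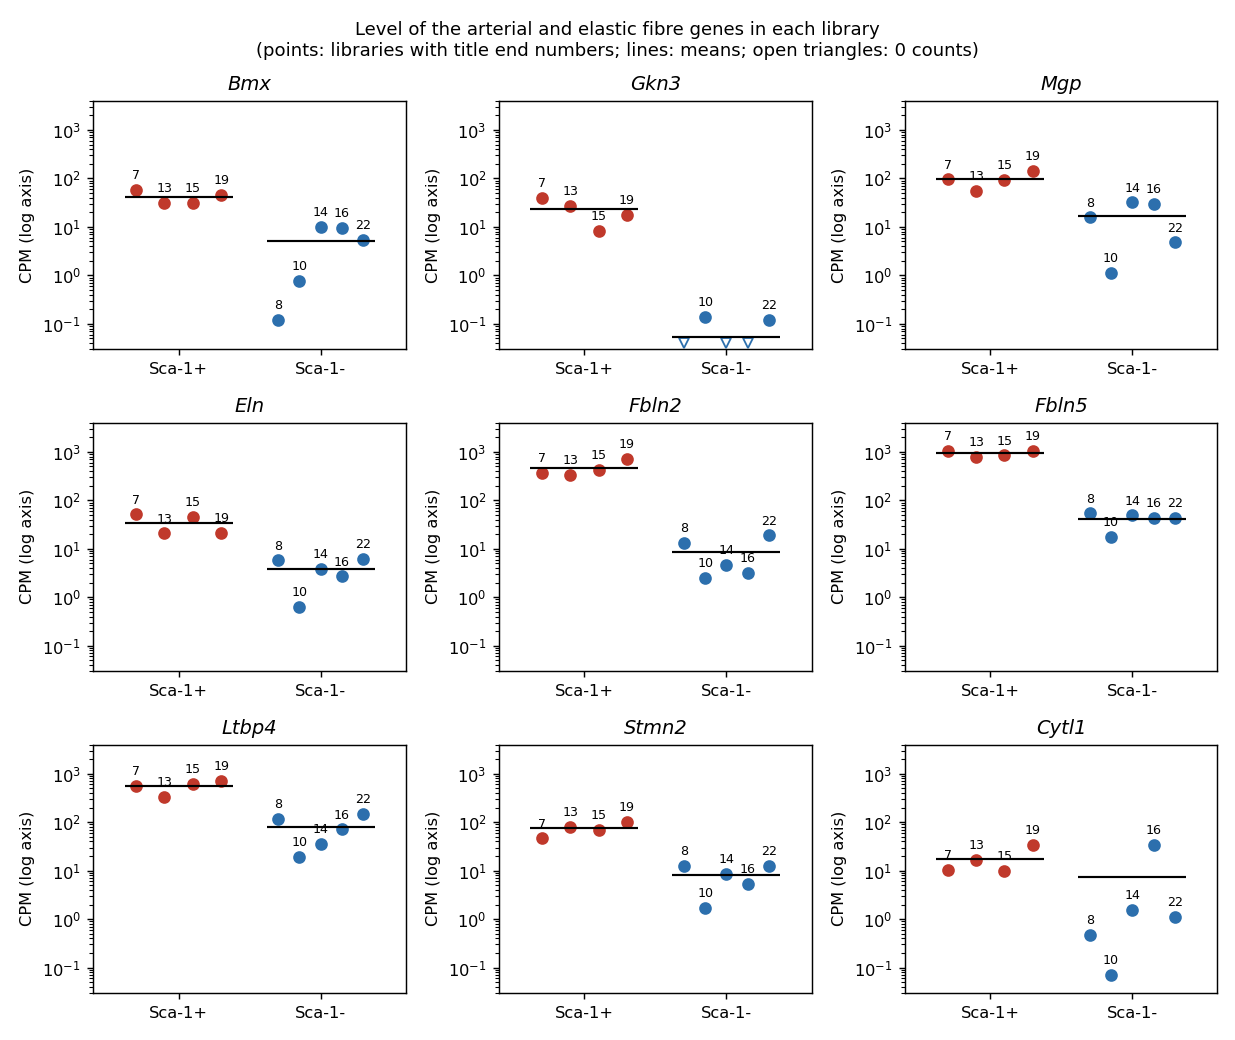
Level of each gene in each library in CPM on a log axis, with Sca-1+ libraries in red, Sca-1- libraries in blue, title end numbers above the points, lines for the means and open triangles for libraries with 0 counts. The fractions are apart for every gene but Cytl1, whose Sca-1- library 16 lies at 34.1 CPM, just above the highest Sca-1+ library at 33.8 CPM.

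Bmx and Gkn3 are genes of arterial ECs. Bmx, on the minus strand of chromosome X from 164192842 to 164258193 (GRCm38), encodes a non-receptor tyrosine kinase of the Tec family found in arterial endothelium. Bmx was at 57.9, 31.2, 31.2 and 45.3 CPM in Sca-1+ libraries 7, 13, 15 and 19, and at 0.120, 0.768, 9.80, 9.56 and 5.38 CPM in Sca-1- libraries 8, 10, 14, 16 and 22. The Sca-1- libraries fell into 2 at or below 1 CPM and 3 between 5 and 10 CPM, and the fractions did not overlap. Bmx rose 7.997-fold in Sca-1+ ECs (log2 fold change 2.999 ± 0.87 (SE), edgeR adjusted p = 0.0178), and this changed to -0.78 (adjusted p = 0.388) under the endothelial scaling. The call was also lost in the 6 libraries with consecutive end numbers, with a block for these numbers (3.06, adjusted p = 0.166) or without it (2.61, adjusted p = 0.113), and with the wording of the titles as a term (2.79, adjusted p = 0.0751). The means were 41.4 ± 12.9 CPM (SD, n = 4) and 5.13 ± 4.63 CPM (SD, n = 5).

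Gkn3, on the minus strand of chromosome 6 from 87383256 to 87388935, encodes gastrokine 3, a secreted protein first known from the stomach and also a marker of arterial ECs. Its promoter is the second of those printed above. Gkn3 had 1185, 801, 243 and 454 counts (40.4, 27.3, 8.39 and 17.6 CPM) in the Sca-1+ libraries and 0, 2, 0, 0 and 3 counts in Sca-1- libraries 8, 10, 14, 16 and 22. Every Sca-1- library was thus at or under the floor, whereas the lowest Sca-1+ library stood far above it. Pooled over libraries, 2683 counts against 5 gave a ratio of 516, with a 95% counting interval of 221 to 1592 that does not include the spread between libraries. The fitted log2 fold change was 8.81 ± 0.91 (SE, adjusted p = 6.49e-05), a value that depends on the prior count, and it was 5.05 under the endothelial scaling (adjusted p = 9.53e-04). It was 9.60 without Sca-1- library 22, which held 3 of the 5 counts, and 12.2 and 12.4 in fits of the 6 libraries with consecutive end numbers, where all Sca-1- libraries were at 0 counts. Within Sca-1+ ECs Gkn3 was among the less even genes, with an SD of 58.5% of its mean, and library 15 was lowest.

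Eln, Fbln2, Fbln5 and Ltbp4 encode parts of the elastic fibre or of its assembly. Eln, on the minus strand of chromosome 5 from 134702593 to 134747323, encodes tropoelastin, the soluble precursor of elastin. Eln was at 51.2, 20.7, 46.3 and 21.1 CPM in Sca-1+ libraries 7, 13, 15 and 19, and at 5.77, 0.628, 3.86, 2.69 and 6.07 CPM in Sca-1- libraries 8, 10, 14, 16 and 22. Within Sca-1+ ECs, libraries 7 and 15 were at about the same level and libraries 13 and 19 were lower, but all stood above the Sca-1- libraries. Eln rose 9.13-fold (log2 fold change 3.19 ± 0.58 (SE), adjusted p = 0.00140), which changed to -0.58 (adjusted p = 0.287) under the endothelial scaling. Its exons overlap 267 bases of Gm30003 on the opposite strand, and since the use of strand in counting is not given in the sources used here, reads of these 2 genes may not be told apart and the value of Eln is uncertain to that extent.

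Fbln2, on the plus strand of chromosome 6 from 91212455 to 91272540, encodes fibulin 2, a secreted glycoprotein of basement membranes and elastic tissue that binds elastin and fibronectin. Fbln2 was at 368, 331, 428 and 709 CPM in Sca-1+ libraries 7, 13, 15 and 19, and at 13.3, 2.51, 4.67, 3.22 and 18.9 CPM in Sca-1- libraries 8, 10, 14, 16 and 22. Libraries 8 and 22 were the highest of the Sca-1- fraction and were still far below the lowest Sca-1+ library. Fbln2 rose 53.9-fold (log2 fold change 5.75 ± 0.68 (SE), adjusted p = 1.29e-04), and 1.47% of all genes tested had a larger log2 fold change. It stayed higher under the endothelial scaling, at 2.03 ± 0.49 (SE, adjusted p = 0.00225).

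Fbln5, on the minus strand of chromosome 12 from 101746565 to 101819055, encodes fibulin 5, which binds tropoelastin and cell surface integrins and is needed for elastic fibres to form. Fbln5 was at 1039, 799, 843 and 1051 CPM in Sca-1+ libraries 7, 13, 15 and 19, and at 53.6, 17.7, 48.6, 43.7 and 42.8 CPM in Sca-1- libraries 8, 10, 14, 16 and 22. It was the most even of the 9 genes, with an SD of 14.01% of its mean in Sca-1+ ECs and 33.6% in Sca-1- libraries, where library 10 alone was low. Fbln5 rose 22.6-fold (log2 fold change 4.50 ± 0.34 (SE), adjusted p = 1.78e-05), and 0.68 ± 0.26 (SE, adjusted p = 0.0286) remained of this under the endothelial scaling. That scale is a mean over 25 genes, of which 4 did not pass the test between fractions. The median log2 fold change of the 25 was 4.22, near that of Fbln5, so what remained depends on the genes that set the scale. It gave 37.0% to 47.1% of the counts of the 9 genes in each Sca-1+ library.

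Ltbp4, on the minus strand of chromosome 7 from 27305136 to 27337692, encodes latent TGF-beta binding protein 4, a partner of fibulin 5 in laying down elastin. Ltbp4 was at 561, 337, 628 and 714 CPM in Sca-1+ libraries 7, 13, 15 and 19, and at 118, 19.3, 36.1, 71.0 and 149 CPM in Sca-1- libraries 8, 10, 14, 16 and 22. The fractions did not overlap, although the highest Sca-1- library, 22, came closer to the lowest Sca-1+ library, 13, than it did for Fbln2 or Fbln5. Ltbp4 rose 7.12-fold (log2 fold change 2.83 ± 0.55 (SE), adjusted p = 0.00210), which changed to -0.90 (adjusted p = 0.0682) under the endothelial scaling. Fbln2 and Ltbp4 thus had like levels in Sca-1+ ECs, at 459 ± 172 and 560 ± 162 CPM (SD, n = 4), but 8.51 ± 7.23 and 78.7 ± 54.5 CPM (SD, n = 5) in Sca-1- libraries. These are the levels of single genes in the fractions, and no length was taken into account.

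Mgp, on the minus strand of chromosome 6 from 136872435 to 136875823, encodes matrix Gla protein, a vitamin K-dependent protein that keeps arteries and cartilage from calcifying. Mgp was at 95.5, 55.0, 93.7 and 145 CPM in Sca-1+ libraries 7, 13, 15 and 19, and at 15.7, 1.12, 32.1, 30.2 and 4.76 CPM in Sca-1- libraries 8, 10, 14, 16 and 22. The fractions did not overlap, but Sca-1- libraries 14 and 16 came nearest to the lowest Sca-1+ library. Mgp rose 5.78-fold (log2 fold change 2.53 ± 0.76 (SE), adjusted p = 0.0207). Without Sca-1+ library 19, the highest, the value was 2.28 and no longer passed the test (adjusted p = 0.0537), and under the endothelial scaling it was -1.27 (adjusted p = 0.113). With the wording of the titles as a term it was 2.27 and did not pass either (adjusted p = 0.0752).

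Stmn2, on the plus strand of chromosome 3 from 8509360 to 8561606, encodes stathmin 2, a protein that destabilizes microtubules and is best known from neurons. Stmn2 was at 46.2, 79.7, 70.1 and 101 CPM in Sca-1+ libraries 7, 13, 15 and 19, and at 12.5, 1.68, 8.44, 5.31 and 12.5 CPM in Sca-1- libraries 8, 10, 14, 16 and 22. Library 7, which was highest for Bmx, Gkn3 and Eln, was the lowest Sca-1+ library for Stmn2. Stmn2 rose 9.17-fold (log2 fold change 3.20 ± 0.51 (SE), adjusted p = 7.11e-04), which changed to -0.53 (adjusted p = 0.270) under the endothelial scaling. Of 15 neuron and Schwann cell genes 5 passed the filter, and Snap25 and Syt1 had 0 counts in all 9 libraries. Pmp22 rose in Sca-1+ ECs. Uchl1 was at 8.63 to 12.8 CPM in Sca-1+ libraries and at 0 to 5.78 CPM in Sca-1- libraries, without overlap, but did not pass the test (log2 fold change 2.52 ± 0.95 (SE), adjusted p = 0.0527). Tubb3 at 0.75 and Gap43 at -1.02 did not pass it either, and the part of neuronal RNA in the Stmn2 level was not tested.

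Cytl1, on the plus strand of chromosome 5 from 37735519 to 37739820, encodes cytokine like 1, a small secreted protein known from CD34+ cells and from cartilage. Cytl1 was at 10.2, 16.9, 9.98 and 33.8 CPM in Sca-1+ libraries 7, 13, 15 and 19, and at 0.481, 0.0698, 1.53, 34.1 and 1.10 CPM in Sca-1- libraries 8, 10, 14, 16 and 22. All Sca-1- libraries but 1 lay below every Sca-1+ library, whereas library 16, with 1028 counts, lay above them all. The difference did not pass the test (log2 fold change 1.24 ± 1.29 (SE), adjusted p = 0.462). Without Sca-1- library 16 it was 4.42 (adjusted p = 0.00156), so that 1 library decided the call, and limma voom on all 9 libraries gave 3.24 (adjusted p = 0.0325). The summed level of the cartilage and bone genes was 2408 CPM in library 16 and 6023 CPM in library 8, where Cytl1 had 8 counts, against 637 to 1183 CPM in the other Sca-1- libraries and 193 to 1033 CPM in the Sca-1+ libraries. The part of such cells in the Cytl1 level of library 16 was not tested.

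Levels of different genes were compared per kilobase (kb) of exon, with the exons of all annotated transcripts of a gene merged. Which transcripts were expressed was not determined, so the order may in part depend on the annotation. In Sca-1+ ECs the order of the mean levels was Fbln5 at 135 ± 18.9, Ltbp4 at 86.7 ± 24.99, Mgp at 81.9 ± 31.0, Fbln2 at 72.1 ± 26.9, Gkn3 at 27.3 ± 16.002, Cytl1 at 16.8 ± 10.6, Bmx at 13.4 ± 4.17, Stmn2 at 13.2 ± 4.03 and Eln at 4.30 ± 2.00 CPM per kb (SD, n = 4). Of the neighbours in this order, Fbln5 and Ltbp4, Fbln2 and Gkn3, and Stmn2 and Eln did not overlap between libraries, and the other 5 pairs of neighbours did. Eln was thus the lowest of the 9 per kb in Sca-1+ ECs, below Fbln2, Fbln5 and Ltbp4. In Sca-1- libraries the order was led by Mgp at 14.1 ± 11.96 and Ltbp4 at 12.2 ± 8.43 CPM per kb (SD, n = 5), Gkn3 was last at 0.0612 ± 0.0841, and every pair of neighbours overlapped between libraries. Within libraries, Fbln5 lay above Bmx and Fbln2 above Eln in 5 of 5, and the other pairs of neighbours did not keep their order in all 5.

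**Figure D2:**
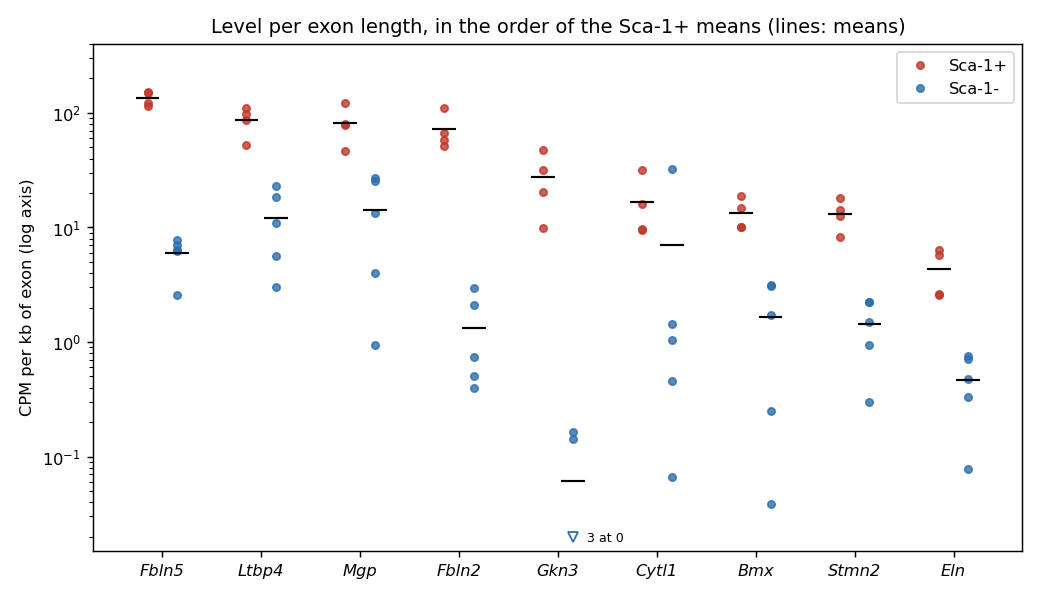
Level of each gene per kb of exon in CPM on a log axis, in the order of the Sca-1+ means, with a point for each library and a line for each mean. Fbln5 leads in Sca-1+ libraries (red) at 135 CPM per kb and Eln is last at 4.30, and Gkn3 has 3 Sca-1- libraries (blue) at 0 counts.

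Single libraries moved the 9 genes in part together. Sca-1- library 10 was the lowest of its fraction for 7 of the 9 genes, Sca-1+ library 13 was lowest for 6 and Sca-1+ library 19 was highest for 6. The 9 genes took 0.276%, 0.207%, 0.254% and 0.318% of all counts in Sca-1+ libraries 7, 13, 15 and 19, and between 0.00255% (library 10) and 0.0274% (library 22) in the Sca-1- libraries. Library 10 also had the highest summed level of megakaryocyte genes, at 119446 CPM, and the lowest scaling factor, at 0.581. The mean log2 CPM of the 17 smooth muscle and pericyte genes was 4.18, 2.90, 4.78 and 5.18 in Sca-1+ libraries 7, 13, 15 and 19. This is the order of Ltbp4 and Fbln2 in these libraries and nearly that of Mgp and Fbln5. Bmx, Gkn3, Eln, Stmn2 and Cytl1 followed other orders. The part of smooth muscle RNA in the levels of the 9 genes was not tested.

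Set beside the general endothelial genes, the 9 genes separated into those that were lower in Sca-1- libraries than most endothelial genes were and those that were not. The median of the 25 general endothelial genes was 4.83%, 1.95%, 4.42%, 7.05% and 8.13% of the Sca-1+ mean in Sca-1- libraries 8, 10, 14, 16 and 22, and the median of the 9 genes was 5.74%, 1.80%, 8.63%, 7.72% and 6.21%. Gkn3, at 0% to 0.597%, and Fbln2, at 0.547% to 4.11%, lay below the endothelial median in 5 of 5 libraries. Ltbp4, at 3.45% to 26.6%, and Stmn2, at 2.26% to 16.8%, lay above it in 5 of 5. Eln lay above it in 4 libraries, Bmx and Mgp in 3 each, and Fbln5 and Cytl1 in 2 each. These positions are a description, and the test that bears on them is the fit scaled to the endothelial genes given with each gene. That fit uses the mean of the endothelial genes, not their median.

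**Figure D3:**
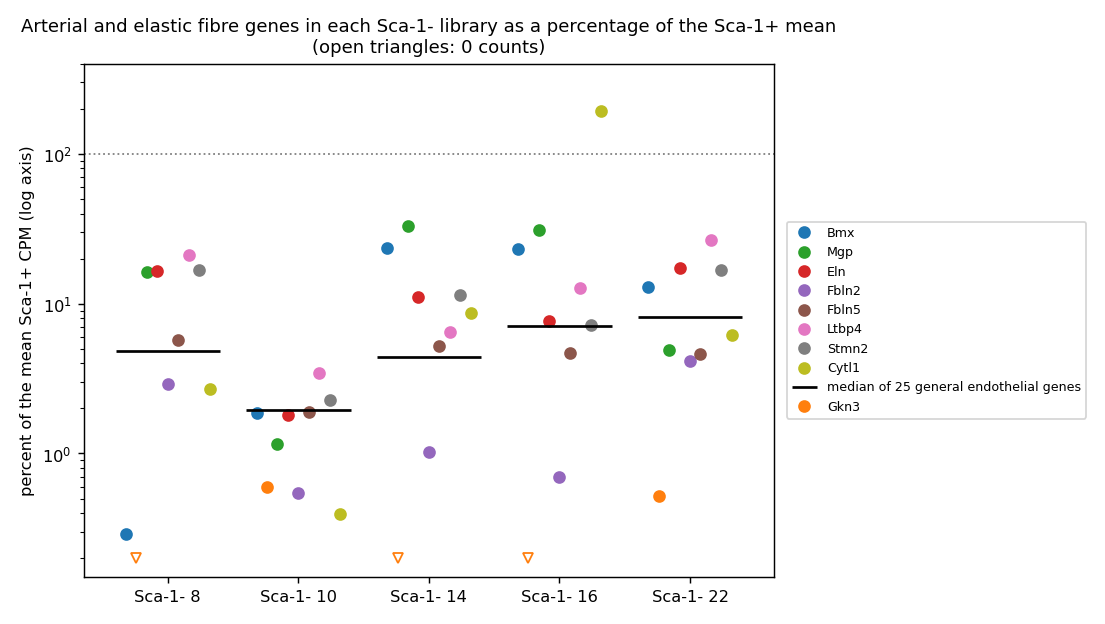
Level of each gene in each Sca-1- library as a percentage of its mean in Sca-1+ libraries, on a log axis, with a black line for the median of the 25 general endothelial genes, a dotted line at 100% and open triangles for 0 counts. Gkn3 and Fbln2 lie under the black line in all 5 libraries, Ltbp4 and Stmn2 lie over it in all 5, and Cytl1 reaches 193% in library 16.

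**Figure D4:**
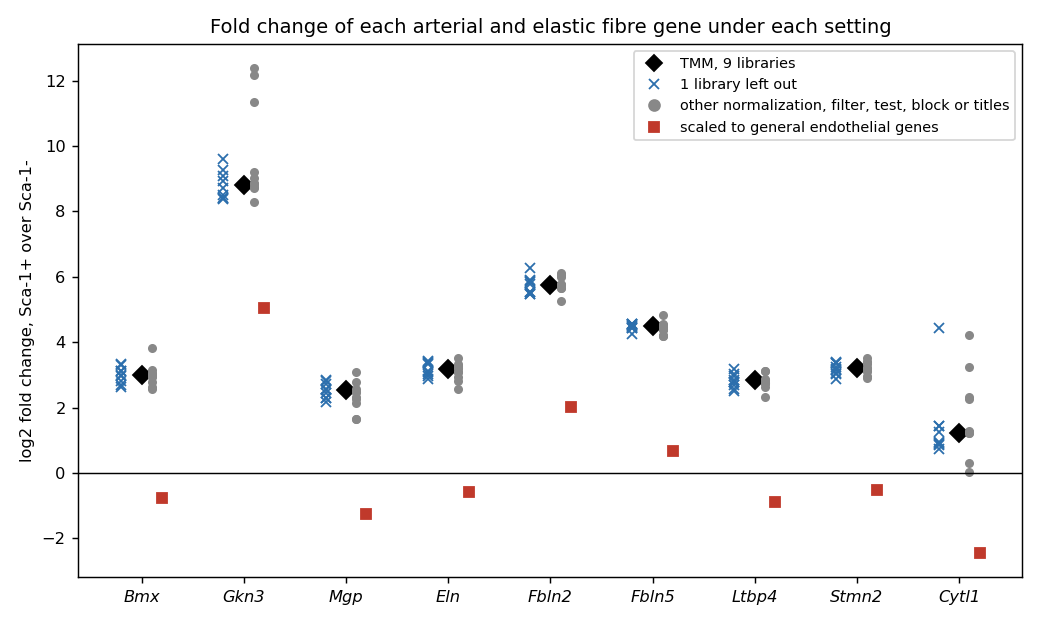
Log2 fold change of each gene between Sca-1+ and Sca-1- libraries under every setting tried, with the main value as a black diamond, fits that leave out 1 library as crosses, other normalizations, filters, tests, the replicate block and the fits by title wording as grey points and the endothelial scaling as red squares. The red squares are above 0 for Gkn3, Fbln2 and Fbln5 alone, and the cross for Cytl1 at 4.42 is the fit without Sca-1- library 16.

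The other genes of the elastic fibre did not share one direction. Of 30 such genes 29 were tested, 4 rose and 7 fell in Sca-1+ ECs, 18 did not pass the test, and their median log2 fold change was -0.09. The shares that rose and fell were 13.8% and 24.1%, against 23.3% and 21.4% of all genes tested. The 4 that rose were Mmrn2, an endothelial protein of the elastin interface family, at 5.22 ± 0.56, Mfap2, a microfibril protein, at 3.02 ± 0.46, Hmcn1, a large relative of the fibulins, at 3.01 ± 0.64, and Adamts10, a protease of microfibrils, at 1.49 ± 0.24 (log2 fold change ± SE). With libraries scaled to their size only, 7 of these genes rose, beside 4158 of all 15937 genes tested. Under the endothelial scaling 1 rose and 23 fell, beside 299 and 13735 of all genes tested. Mmrn2 is also among the 25 genes that set that scale. Ltbp1, which stores latent TGF-beta in the matrix, fell by 5.59 on the log2 scale and was at 3.95 to 23.2 CPM in Sca-1+ libraries and at 198 to 1639 CPM in Sca-1- libraries. Emilin2 fell by 5.14 and Mmrn1, a protein stored in platelets, fell by 3.84 on the same scale, and Fbln7, Lox, Mfap4 and Loxl3 fell too. The fibrillins, the scaffold of the fibre, did not pass the test, with Fbn1 at 2.16 ± 1.02 (SE, adjusted p = 0.108) and Fbn2 at -4.02 ± 1.71 (SE, adjusted p = 0.0794).

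**Figure D5:**
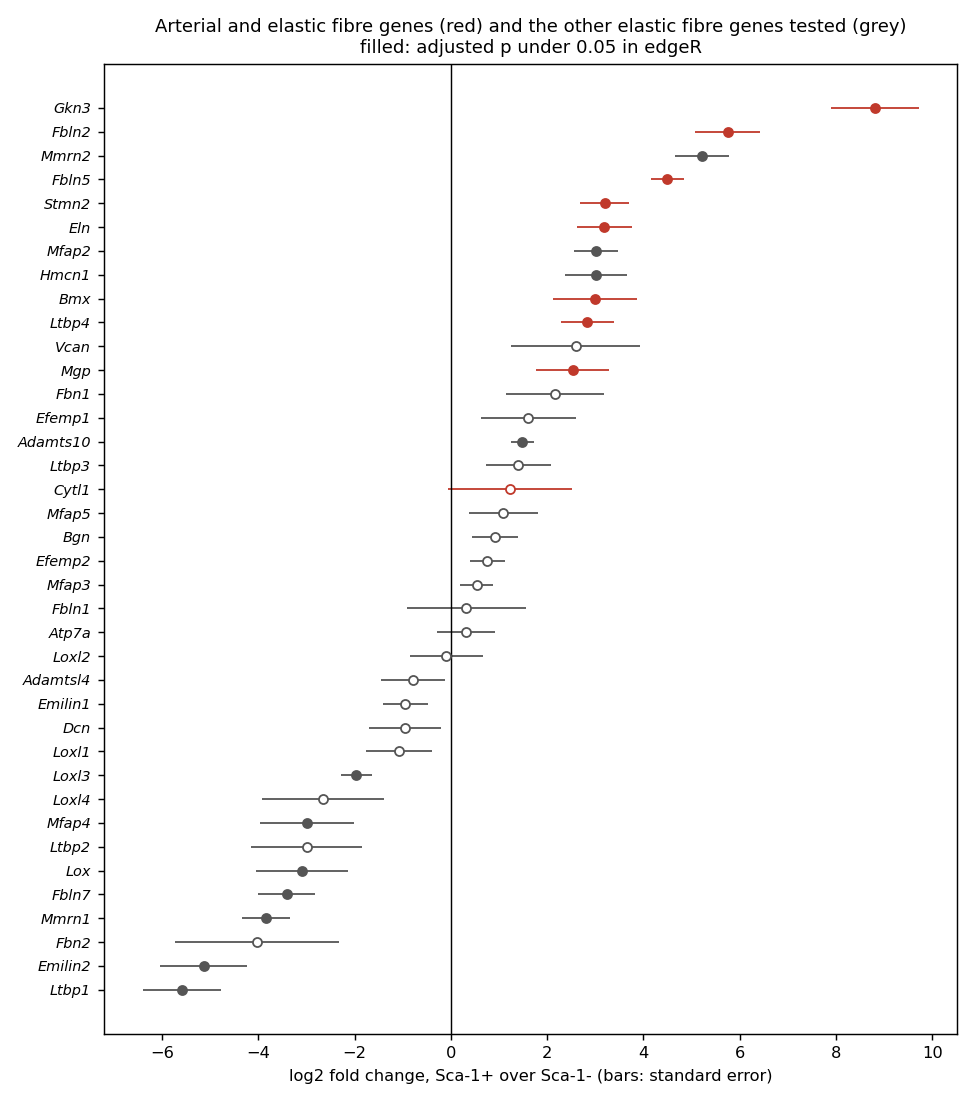
Log2 fold change of the 9 arterial and elastic fibre genes (red) and the 29 other elastic fibre genes tested (grey), Sca-1+ over Sca-1-, with bars for the standard error and filled points for an adjusted p under 0.05. The red points all lie above 0, from Cytl1 at 1.24 to Gkn3 at 8.81, and the grey points run from Ltbp1 at -5.59 to Mmrn2 at 5.22.

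Other genes of arterial ECs mostly moved as the 9 did. Of 26 tested, 22 rose and 2 fell in Sca-1+ ECs, with a median log2 fold change of 4.61. Over all genes tested, 23.3% rose and 21.4% fell. The share of these arterial genes that rose, 84.6%, was like that of the sinusoidal endothelial genes (14 of 16, 87.5%) and of the general endothelial genes (21 of 25, 84%). A rise in Sca-1+ libraries was therefore not particular to arterial genes. Under the endothelial scaling 11 of the 26 rose and 4 fell, beside 299 and 13735 of all 15937 genes. Sox17, a transcription factor of arterial fate, was at 252 to 313 CPM in Sca-1+ libraries and at 0 to 3.02 CPM in Sca-1- libraries (log2 fold change 8.06 ± 0.91 (SE), adjusted p = 1.05e-04). Gja5, the gap junction protein connexin of arterial ECs, was at 31.8 to 96.5 CPM and at 0.0698 to 0.601 CPM (7.27 ± 0.54 (SE), adjusted p = 1.78e-05). Sema3g, a secreted semaphorin, was at 18.6 to 29.2 CPM in Sca-1+ libraries and at or under the floor in every Sca-1- library. Slc45a4 fell by 3.82 and Clu fell by 3.63 on the log2 scale. Alpl and Unc5b were the 2 that did not pass the test.

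Relatives of the 9 genes moved in both directions. Of 22 relatives and binding partners 17 were tested, 2 rose and 8 fell. These are 11.8% and 47.1%, against 23.3% and 21.4% of all genes tested. Among the Tec kinases, the relatives of Bmx, Tec was at 8.11 to 11.8 CPM in Sca-1+ libraries and at 207 to 1381 CPM in Sca-1- libraries, Btk fell by 7.76 and Txk fell by 8.18 on the log2 scale. Tec, Btk and Txk are kinases of blood cells, and of the Tec kinases described here Bmx alone was called higher in Sca-1+ ECs, a call that it lost under the endothelial scaling. Among the fibulins, Fbln7 fell by 3.41, whereas Fbln1, Efemp1 and Efemp2, which encode fibulins 1, 3 and 4, had log2 fold changes of 0.32, 1.61 and 0.75 and did not pass the test. Among the latent TGF-beta binding proteins, Ltbp1 fell, and Ltbp2 at -2.996 ± 1.16 (SE, adjusted p = 0.0571) and Ltbp3 at 1.40 ± 0.67 (SE, adjusted p = 0.116) did not pass. Of the ligands that these proteins bind, Tgfb2 rose by 3.02 and Tgfb1 fell by 2.54 on the log2 scale, and Tgfb3 at -0.36 did not pass the test. Stmn1, the stathmin of dividing cells, fell by 1.05, and Stmn3, Stmn4, Gkn1 and Gkn2 were too low to be tested. Bglap, osteocalcin, which carries Gla residues as Mgp does, fell by 6.71, and Ccr2, at -4.10, did not pass the test.

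Markers of other cell types give the levels beside which these values stand. Their counts stand beside 23.3% of all genes tested that rose in Sca-1+ libraries and 21.4% that fell. Of 16 smooth muscle and pericyte genes tested, 12 rose and 1 fell in Sca-1+ ECs, and their summed level was 851 to 1982 CPM in Sca-1+ libraries and 711 to 4324 CPM in Sca-1- libraries, where Smtn, which fell by 3.33, gave the largest part. The 3 that rose most were Higd1b, Rgs5 and Notch3, at 6.31, 6.13 and 5.21 on the log2 scale. Of 16 fibroblast and stromal genes, 2 rose and 4 fell, with Col1a1 at 27.4 to 389 CPM in Sca-1+ libraries and at 2028 to 27568 CPM in Sca-1- libraries. The summed level of these genes was 302 to 1109 CPM and 3044 to 42007 CPM. Of 14 cartilage and bone genes, 3 fell and none rose. Of 16 leukocyte genes, 14 fell and none rose, and of 14 erythroid genes, 11 fell and none rose. Ptprc, which encodes CD45, was at 0 to 2.56 CPM in Sca-1+ libraries and at 17.2 to 47.8 CPM in Sca-1- libraries. The part of these cells in the values of the 9 genes was not tested, beyond the fits scaled to the endothelial genes.

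The genes most like each of the 9 were sought among 12906 other genes by the root mean square (RMS) difference of their centred log2 CPM over the 9 libraries. Fbln5 was nearest to Procr, the endothelial protein C receptor, at an RMS of 0.23, then to Sgk1 and Gm13889. Stmn2 was nearest to Tmem100 at 0.25, Ltbp4 to Arhgef10 at 0.26 and Eln to Fstl1 at 0.40, with Cldn5, a tight junction gene of ECs, as the third for Eln. Mgp was nearest to Ms4a4d at 0.46, Fbln2 to Lmo1 at 0.53, with the Notch ligand Dll4 as the third, and Bmx to Tnfrsf22 at 0.56. Gkn3 was nearest to Tcf15 at 0.66, followed by Srms and Sema3g. No gene came close to Cytl1, whose nearest gene, Zfp229, had an RMS of 1.14. The libraries fall into 2 fractions, so likeness here is mostly a like difference between them, and it is given as a description.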

How the data were processed

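Read counts per gene, whole numbers without normalization, were deposited by the authors for 9 libraries. Per the labels, RNA was taken from sorted ECs and poly(A) cDNA libraries were made with the SMART-Seq v4 kit from 2 ng of total RNA, a protocol with no molecular identifiers; PCR copies are therefore counted, and intervals and floors cover counting error only. The submitters' processing notes name STAR, featureCounts and mm10. Versions, annotation and use of strand are not given in the sources used here.

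Differential expression was computed with edgeR 4.0.16 (R 4.3.3). Genes were kept by filterByExpr (minimum count 10, minimum total 15), libraries were scaled by TMM, and the fractions were compared with the two-sided quasi-likelihood F-test on all 9 libraries, with Benjamini-Hochberg adjustment over 15937 genes and a threshold of 0.05. The SE came from the F statistic. CPM used TMM-scaled library sizes, and log2 CPM a prior count of 2. The edgeR step was first tested on simulated data. Libraries of one fraction were checked for copies, and the chi-square between any 2 of them was 36.8 to 538 for each degree of freedom, so none was a copy. Alternatives changed the normalization, filter, test (DESeq2 1.42.0, limma 3.58.1 voom), block and libraries, and 3 fits by the wording of the titles were added after the data were seen. GENCODE M21 (GRCm38) gave coordinates and exon lengths, and 935 of 46078 identifiers had no entry there.

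The genes, lists and naming rule were chosen with earlier results of these data known. The rule names all 9 genes, the sort genes, the relatives of a described gene, the 3 highest and 3 lowest called genes of each list without overlap between fractions, and the 3 genes most like each of the 9 (average log2 CPM of at least 1). Adamts10, Lox, Mfap4, Loxl3, Fbn1, Fbn2, Alpl, Unc5b, Snap25, Syt1, Uchl1, Tubb3 and Gap43 fall outside it and were named after their values were seen. Of 228 list symbols, 226 matched a deposited gene. Figures used matplotlib 3.10.9 (Python 3.11.15). Some genes of the lists are not reported here.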

Additional observations from a re-analysis of the deposited data

Results flagged for a closer look

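A sample far from the others of its fraction was sought in 40 groups of values, the 9 genes and 11 marker lists in each fraction, by Dixon's test at the 95% level, which chance meets in about 1 in 20 groups. It was found in 2. The log2 CPM of Fbln5 was 4.16 in Sca-1- library 10, against 5.42 to 5.75 in the other Sca-1- libraries. The mean log2 CPM of the neuron and Schwann cell genes was -0.67 in Sca-1- library 22, against -1.53 to -1.30 in the other Sca-1- libraries. The Cytl1 level of Sca-1- library 16 did not meet this test on the log2 scale.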

How the results depend on the processing

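Scaling to the 25 general endothelial genes changed most results. Genes called went from 7137 to 14034 (299 higher, 13735 lower), the called genes among the 9 from 8 to 3, other elastic fibre genes from 4 higher and 7 lower to 1 and 23, and other arterial endothelial genes from 22 and 2 to 11 and 4. It reversed Bmx (-0.78), Mgp (-1.27), Eln (-0.58), Ltbp4 (-0.90), Stmn2 (-0.53) and Cytl1 (-2.44), with adjusted p from 0.0682 to 0.388. By its construction this scaling asks whether a gene differed more than the mean of the 25 general endothelial genes did. Of these, 4 did not pass the test between fractions, and the median log2 fold change of the 25 was 4.22, near the 4.50 of Fbln5. With library size only, other elastic fibre genes higher were 7, and 63.1% of calls were higher against 52.1%, with the median of all genes at 0.43.

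The fit with a replicate block of consecutive end numbers (7 and 8, 13 and 14, 15 and 16) called 4340 genes, against 5360 in the same 6 libraries without the block, and Bmx was 3.06 (adjusted p = 0.166) and 2.61 (adjusted p = 0.113). Deviations within these pairs correlated at 0.147, 0.148 and 0.042, each the highest for both of its libraries. The lowest value, 0.042, belongs to 15 and 16, whose titles also share a number before wt. Whether the end numbers pair the libraries was not tested, and these correlations do not decide it. The main fit used no block, so its p-values treat all libraries as independent, which may not hold for these pairs. For Cytl1, limma voom gave 3.24, and the fits that leave out 1 library ran from 0.72 to 4.42. For Mgp those fits ran from 2.17 to 2.84. Without Sca-1+ library 19, Mgp no longer passed (2.28, adjusted p = 0.0537), and without Sca-1- library 16 Cytl1 did. Gkn3, Fbln2 and Fbln5 stayed called higher under all 20 alternatives. Eln, Ltbp4 and Stmn2 did under 18, all but the endothelial scaling and the fit of the libraries with CD452. DESeq2 gave no adjusted p for Cytl1. Depth limits Gkn3 in Sca-1- libraries, where 0 to 3 counts were seen.

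The 3 fits by the wording of the titles were chosen after seeing the data. With wt or CD452 (with or without CD) as a term (8 libraries), Bmx was 2.79 (adjusted p = 0.0751) and Mgp 2.27 (adjusted p = 0.0752), and 6 of the 9 genes were called. In the 4 libraries with wt, 2668 genes were called and Bmx was 2.94 (adjusted p = 0.231), with 7 of the 9 called. In the 4 libraries with CD452, of which 1 is Sca-1+ and is assumed to vary like the others, 1211 genes were called, with 3 of the 9 (Gkn3, Fbln2 and Fbln5), other elastic fibre genes at 2 higher and 4 lower and other arterial endothelial genes at 1 lower. There Bmx was 2.55, Gkn3 8.28, Mgp 2.13, Eln 2.56, Fbln2 5.25, Fbln5 4.46, Ltbp4 2.31, Stmn2 3.40 and Cytl1 4.21. All 9 genes kept values above 0 in these 3 fits, which hold fewer libraries.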
